A study of Mus musculus with 3 samples.

Results

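The genes described are 10 of the 32285 genes counted in the lung endothelium of mice given melanoma cells. They are the NF-κB subunits Nfkb1, Nfkb2, Rel, Rela and Relb, the inhibitors Nfkbia and Tnfaip3, and the partner genes Nfkbiz, Bcl3 and Birc3. They were taken by symbol, as genes known to act in one pathway, and with earlier results of these data known. The study had itself reported Bcl3 as a marker of the capillary cells that increased at 6 h. All 10 were found in the gene list and each averaged 5 CPM or more (a gene's UMIs scaled to 1000000 UMIs of the sum) over the libraries, the limit used for comparisons with all genes.

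NF-κB is a family of dimeric transcription factors that wait in the cytoplasm bound to inhibitor proteins. Cytokines such as TNF and IL-1 lead to the destruction of the inhibitor IκBα, and the freed dimers of p50 (from Nfkb1) with RelA or c-Rel enter the nucleus, while a slower branch joins p52 (from Nfkb2) with RelB. Several targets encode the brakes of the pathway itself, among them Nfkbia and Tnfaip3, and in endothelium the pathway is known for inducing adhesion molecules and chemokines that recruit leukocytes.

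The study asked how endothelial cells (ECs) of the lung respond to tumor cells arriving from the blood. C57BL/6 mice, adult males per the study's methods, received PBS or 200000 B16-F10 cells, a mouse melanoma line that lodges in lung capillaries, in 100 µl through the tail vein. The labels give 2 mice for each treatment, whereas the methods give 3 for the experiment that included 30 h. Lungs were digested with warm collagenase, Pecam1+ Ptprc- cells were sorted, and 1 library of 3′ single-cell RNA was made per group.

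The 3 groups were a control library from mice given PBS and taken at 6 h, a library taken 6 h after melanoma cells, and a library taken 30 h after melanoma cells. All mice were wild type. Melanoma cells were dyed with a tracker before injection and were also sorted. The methods give this for the whole experiment, whereas the labels name melanoma cells for the 6 h library alone. A PBS library taken at 30 h was not analysed here, so both melanoma libraries were set against the same 6 h control, and time since injection and the melanoma cells cannot be told apart at 30 h. Each group had 1 library, so neither a spread between replicates nor a test could be had, and the 95% intervals given here cover counting error only.

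ECs were barcodes with 1000 to 5000 detected genes, under 20% mitochondrial UMIs and at least 2 UMIs of Pecam1 and Cdh5 together. They numbered 11231 in the control, 10583 at 6 h and 9278 at 30 h, or 96.8% to 97.6% of the barcodes that passed the first 2 limits, with 81485079 to 90853430 UMIs per library and medians of 7782, 8033 and 8675 UMIs per barcode. Libraries shared 22 to 38 EC barcodes pairwise. Pecam1 was at 1097 to 1237 CPM and Cdh5 at 1583 to 1788 CPM, and leukocyte markers (4 genes) summed to 11.7 CPM in the control, 21.4 CPM at 6 h and 22.1 CPM at 30 h. Markers of other cell types summed, in the same order, to 742, 551 and 342 CPM for epithelium, 139, 170 and 140 CPM for platelets, 27.6, 20 and 26.4 CPM for mesenchyme and 1.22, 13.9 and 1.02 CPM for melanoma. The 10 immediate early genes summed to 8521, 11431 and 6174 CPM and the 8 heat shock genes to 1373, 2901 and 1679 CPM; these genes respond to warm digestion as well as to stimuli, and no member is on either list.

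Across ECs, the members differed in their pattern over the 3 libraries. Bcl3, Tnfaip3, Nfkb2 and Relb were 1.63 to 2.55 times as high at 6 h as in the control and were near the control at 30 h. Rel, Nfkbiz and Birc3 were 1.12 to 1.26 times as high at 6 h and at 0.488 to 0.64 times the control level at 30 h. Nfkb1, Rela and Nfkbia, which had 3 of the 4 highest control levels of the family, stayed within 0.794 to 1.21 times the control at both times. A 3′ assay counts each captured molecule once, but capture can differ by gene and whether introns were counted is not known. The order of genes by CPM is therefore approximate. In the control library the order was Nfkbia, Nfkb1, Nfkbiz, Rela, Rel, Birc3, Relb, Bcl3, Nfkb2 and Tnfaip3, and of neighbours in it only Rel and Birc3 had overlapping intervals.

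**Figure D1:**
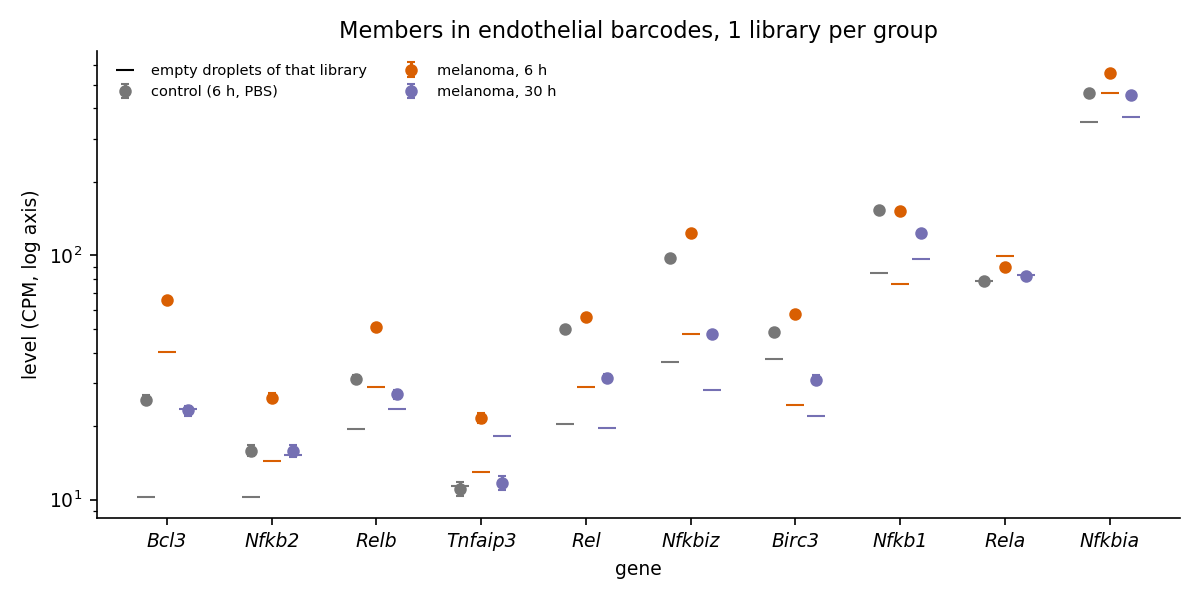
Level of each member (CPM, log axis) in the ECs of each library, with exact Poisson 95% intervals as bars, and its level in the empty droplets of the same library as a dash. Bcl3 stood at 65.5 CPM at 6 h against 25.7 CPM in the control, while Nfkbiz stood at 47.5 CPM at 30 h against 97.4 CPM in the control.

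Nfkb1 encodes p105, the precursor of the p50 subunit, on chromosome 3 (135584655 to 135691547, minus strand; here and for the other members GENCODE M21, GRCm38). Its level was 154 CPM (95% interval 152 to 157) in the control, 152 CPM (149 to 154) at 6 h and 123 CPM (120 to 125) at 30 h. The control and 6 h intervals overlapped and the 30 h library was below both. The log2 ratio to the control was -0.02 (-0.06 to 0.01) at 6 h and -0.33 (-0.37 to -0.30) at 30 h.

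Rela encodes p65, the main activating subunit, on chromosome 19 (5637483 to 5648130, plus strand). Its level was 78.5 CPM (76.7 to 80.4) in the control, 89.9 CPM (88 to 92) at 6 h and 82.7 CPM (80.7 to 84.7) at 30 h. The libraries lay close together, the 6 h one highest. Log2 ratios to the control were 0.20 (0.15 to 0.24) at 6 h and 0.07 (0.03 to 0.12) at 30 h. Empty droplets, barcodes with 10 to 100 UMIs that hold free RNA, had 78.7, 99.4 and 83 CPM of Rela, so its level in ECs was not above that of the free RNA.

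Rel encodes c-Rel, a subunit best known from lymphocytes, on chromosome 11 (23736847 to 23770970, minus strand). It measured 50.1 CPM (48.7 to 51.6) in the control, 56.1 CPM (54.5 to 57.7) at 6 h and 31.5 CPM (30.3 to 32.7) at 30 h. The 30 h library was the low one of the 3. Its log2 ratio was 0.16 (0.10 to 0.22) at 6 h and -0.67 (-0.74 to -0.60) at 30 h.

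Nfkb2 encodes p100, the precursor of p52 and a brake on RelB, on chromosome 19 (46304320 to 46312385, plus strand). It measured 15.9 CPM (15.1 to 16.7) in the control, 26.2 CPM (25.2 to 27.3) at 6 h and 15.8 CPM (14.9 to 16.7) at 30 h. The 6 h library stood alone, and the other two were indistinguishable within counting error. The log2 ratio was 0.72 (0.63 to 0.82) at 6 h and -0.01 (-0.12 to 0.10) at 30 h. At 30 h empty droplets had 15.2 CPM of Nfkb2, on 40 UMIs, close to the EC level.

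Relb encodes the partner of p52, on chromosome 7 (19606217 to 19629438, minus strand). Its level was 31.2 CPM (30 to 32.3) in the control, 50.7 CPM (49.2 to 52.2) at 6 h and 27 CPM (25.9 to 28.2) at 30 h. Again the 6 h library was the high one, here with the 30 h library a little under the control. Log2 ratios were 0.70 (0.63 to 0.77) at 6 h and -0.21 (-0.29 to -0.13) at 30 h. Empty droplets at 30 h had 23.5 CPM of Relb, on 62 UMIs, not far under the EC level.

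Nfkbia encodes IκBα, the inhibitor that is degraded and resynthesised with each round of activation, on chromosome 12 (55489410 to 55492647, minus strand). With 462 CPM (457 to 466) in the control, 558 CPM (553 to 563) at 6 h and 454 CPM (450 to 459) at 30 h, it was the most abundant member in each library. The 6 h library was the highest and the other two nearly level. Its log2 ratio was 0.27 (0.25 to 0.29) at 6 h and -0.02 (-0.04 to -0.00) at 30 h. Empty droplets had 351, 461 and 369 CPM, so free RNA was also highest at 6 h.

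Nfkbiz encodes IκBζ, a nuclear IκB protein that helps switch on secondary response genes, on chromosome 16 (55811375 to 55838899, minus strand). Its level was 97.4 CPM (95.3 to 99.4) in the control, 123 CPM (121 to 125) at 6 h and 47.5 CPM (46 to 49.1) at 30 h. No 2 libraries overlapped, and the 30 h level was the low one by a wide margin. The log2 ratio was 0.34 (0.30 to 0.38) at 6 h and -1.03 (-1.09 to -0.98) at 30 h, the lowest of the members there.

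Bcl3 encodes another nuclear IκB protein, which binds p50 and p52 dimers and can turn them into activators, on chromosome 7 (19808462 to 19822770, minus strand). Its level was 25.7 CPM (24.7 to 26.8) in the control, 65.5 CPM (63.8 to 67.2) at 6 h and 23.2 CPM (22.1 to 24.2) at 30 h. Only the 6 h library was high. The log2 ratio was 1.35 (1.28 to 1.42) at 6 h, the highest of the members, and -0.15 (-0.24 to -0.06) at 30 h. Empty droplets of the 3 libraries had 10.3, 40.3 and 23.5 CPM of Bcl3, on 9, 28 and 62 UMIs. The measured level of free RNA was thus also highest at 6 h, though on few UMIs. At 30 h the EC level was not above that of the free RNA.

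Tnfaip3 encodes A20, a ubiquitin-editing enzyme that ends signalling from the TNF receptor, on chromosome 10 (19000910 to 19015657, minus strand). It was the scarcest member with 11.1 CPM (10.4 to 11.8) in the control, 21.6 CPM (20.7 to 22.6) at 6 h and 11.7 CPM (11 to 12.5) at 30 h. The 6 h library stood well above the others, which overlapped. Its log2 ratio was 0.97 (0.86 to 1.08) at 6 h and 0.09 (-0.04 to 0.22) at 30 h. Empty droplets held 11.4, 13 and 18.2 CPM, on 10, 9 and 48 UMIs, so the EC level was not above free RNA in the control or at 30 h.

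Birc3 encodes cIAP2, a ubiquitin ligase of the TNF receptor complex, on chromosome 9 (7848699 to 7873186, minus strand). It measured 48.5 CPM (47.1 to 50) in the control, 57.5 CPM (55.9 to 59.1) at 6 h and 31 CPM (29.8 to 32.3) at 30 h. As for Rel, the control and 6 h libraries were near each other and the 30 h library was lower. Log2 ratios were 0.24 (0.19 to 0.30) at 6 h and -0.64 (-0.72 to -0.57) at 30 h.

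To set the members beside all genes, log2 ratios of (CPM + 1) were taken over the 10175 genes that averaged 5 CPM or more, and a log2 ratio of at least 0.5 in size counted as past the limit. At 6 h against the control, 4 of the 10 members were past the limit upward (Bcl3, Nfkb2, Relb and Tnfaip3), beside 2.57% of all genes, and 0 downward, beside 1.81%. The members' median was 0.30 (range -0.02 to 1.32) and that of all genes -0.01. In barcodes low in immediate early and heat shock RNA (described below) the members' median was 0.13. Bcl3 ranked 16 from the top of the 10175 genes, Tnfaip3 53, Nfkb2 130 and Relb 131. Since the members were chosen with earlier results of these data known, these shares and ranks describe the list and do not test it.

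At 30 h against the same control, 0 members were past the limit upward, beside 5.87% of genes, and 3 downward (Rel, Nfkbiz and Birc3), beside 7.34%. The median of the members was -0.17 and that of all genes -0.07, and in barcodes low in immediate early and heat shock RNA (described next) the members' median was 0.07. Nfkbiz ranked 83 from the bottom, Rel 306 and Birc3 356. Between the 2 melanoma libraries all 10 members were lower at 30 h than at 6 h (Nfkbia alone was higher, by 0.14, in the barcodes low in immediate early and heat shock RNA described next), beside 60.1% of all genes with any lower value, and 7 were past the limit downward, beside 6.82% of genes, while 0 were past it upward, beside 6.39%. The median there was -0.82 for the members and -0.07 for all genes, and the 3 members short of the limit were Nfkb1, Rela and Nfkbia. In the barcodes low in immediate early and heat shock RNA, 5 members were past the limit downward, beside 7.46% of all genes in those barcodes. Nfkb2 and Rel (each -0.48) were not among them, and the members' median was -0.49.

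Counting intervals at this depth are narrow. In 6 of the 10 members the interval of the log2 ratio lay above 0 at 6 h and below 0 at 30 h (Bcl3, Relb, Rel, Nfkbia, Nfkbiz and Birc3), beside 10.3% of all genes, and in 0 the other way round, beside 8.06%. Genes with more UMIs have narrower intervals, so such counts depend on level as well as on the size of a difference. Nfkbia counted with -0.02 (-0.04 to -0.00) at 30 h, which other scalings moved to 0.01 and 0.02.

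**Figure D2:**
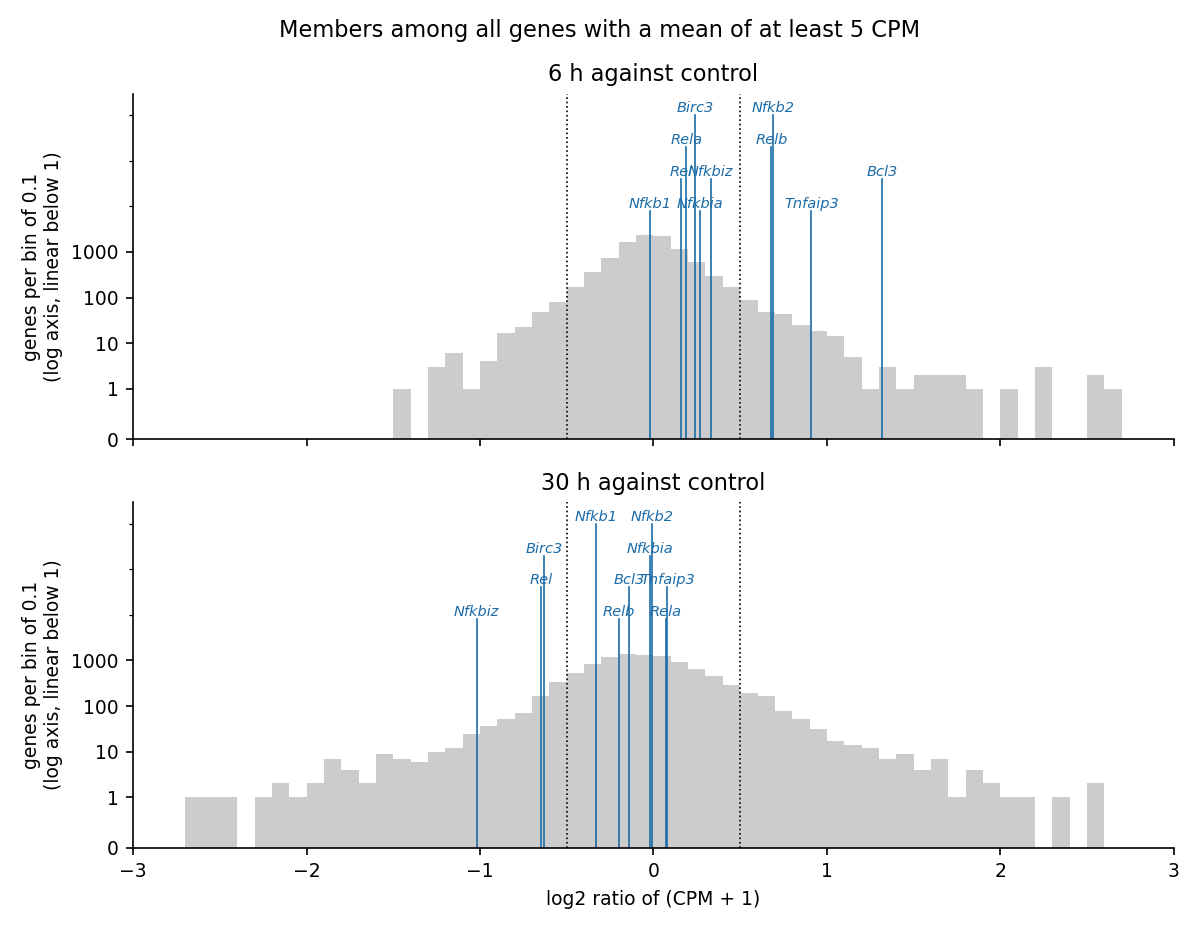
Histograms of the log2 ratio of (CPM + 1) over 10175 genes at 6 h (top) and 30 h (bottom) against the shared control, with genes per bin on a log axis, members as blue lines and the limits of 0.5 dotted. Bcl3, Tnfaip3, Nfkb2 and Relb lie past the upper limit at 6 h, and Nfkbiz, Rel and Birc3 past the lower limit at 30 h.

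The members' changes were compared with those of genes that respond to cell handling and to stimuli. All 10 immediate early genes and all 8 heat shock genes were higher at 6 h than in the control, and 1 of 10 and 4 of 8 at 30 h. Barcodes were thinned to 2000 UMIs and those with at most 15 UMIs of these lists, the pooled median, were summed again (5783, 4094 and 5882 barcodes). At 6 h the log2 ratio there was 1.28 for Bcl3, 0.96 for Tnfaip3, 0.74 for Relb and 0.53 for Nfkb2. Of the smaller differences, those of Nfkbia (-0.05), Nfkbiz (0.02), Rel (-0.01) and Birc3 (0.04) were near 0 in this subset, while Rela was at 0.22, beside 0.20 in all ECs. A cut on these genes may also take out barcodes that responded to a stimulus. Handling and response therefore cannot be told apart in this subset.

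At 30 h the same barcodes gave -0.62 for Birc3, -0.53 for Nfkbiz and -0.49 for Rel, beside -0.64, -1.03 and -0.67 in all ECs. Bcl3 and Relb, slightly under the control in all ECs at 30 h, were at 0.09 and 0.10. Leukocyte and melanoma markers were also higher at 6 h. In barcodes with fewer than 2 UMIs of the markers of other cell types (Sftpc and Scgb1a1 left aside), the 6 h log2 ratio was 1.34 for Bcl3, 0.92 for Tnfaip3, 0.67 for Nfkb2 and 0.67 for Relb, and the 30 h one -1.02 for Nfkbiz, -0.69 for Rel and -0.66 for Birc3. In the fewer barcodes with no UMI of any of these markers, Sftpc and Scgb1a1 included (1132, 2414 and 2903), Relb was at 0.98 and Tnfaip3 at 0.75 at 6 h, Bcl3 at 1.30, Nfkb2 at 0.68 and Nfkbiz at 0.19. At 30 h Tnfaip3 was at -0.26 there, against 0.09 in all ECs.

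Promoter sequence was examined because several members are known targets of NF-κB themselves. RefSeq windows of GRCm38.p6, from 250 bases before to 50 bases after an annotated start, were given for 7 of the 10 members (Bcl3, Birc3, Tnfaip3, Rel, Nfkbia, Rela and Nfkb2) and were searched on both strands for the NF-κB consensus. At least 1 match lay in a window of 5 of the 7 (Bcl3, Tnfaip3, Rel, Nfkbia and Nfkb2), beside 5.14% of all 27025 genes with a window. Counted by window, 7 of the members' 10 windows held a match, beside 4.51% of all 32851 windows, and 2 of the windows of Nfkb2 overlap and share one match. No match was found in the windows of Birc3 and Rela. Sites of the members with a match are shown, 1 per gene and a second for Nfkb2 (further or overlapping matches lay in the windows of Tnfaip3, Rel and Nfkb2), because they are the sequence feature these genes share; each is printed on the gene's strand with 10 flanking bases per side and the match in capitals.
Bcl3, from base 3 after the start, chr7:19822734-19822763: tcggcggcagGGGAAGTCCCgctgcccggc
Tnfaip3, from 12 bases before the start, chr10:19015403-19015432: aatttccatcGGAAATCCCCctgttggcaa
Rel, from 92 bases before the start, chr11:23771042-23771071: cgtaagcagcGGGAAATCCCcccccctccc
Nfkbia, from 29 bases before the start, chr12:55492657-55492686: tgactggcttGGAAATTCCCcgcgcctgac
Nfkb2, from 39 bases before one start, chr19:46304688-46304717: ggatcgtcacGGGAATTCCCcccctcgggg
Nfkb2, from base 11 after a second start, chr19:46305695-46305724: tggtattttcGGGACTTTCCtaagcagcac

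The matched letters differ from gene to gene around the same G-rich and C-rich ends. Of the genes shown, Bcl3, Tnfaip3 and Nfkb2 were past the limit upward at 6 h, Nfkbia was at 0.27 and Rel was past the limit downward at 30 h, so a match was found in genes of each pattern over the libraries. TTCNNNGAA, the core of a STAT site, was found in 1 of the 7 members (Nfkb2), beside 9.55% of all genes with a window. A match describes the letters only, and binding was not measured.

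Marker genes split the ECs into 5 classes by barcode: general capillary cells (gCap; at least 10 UMIs of 5 markers), aerocytes (aCap, the large capillary cells of gas exchange; 10), artery (5), vein (10) and lymphatic (5). A barcode past exactly 1 of the other gates took that class whatever its gCap markers, one past more than 1 of them took none, and gCap was given only to barcodes past no other gate. No member is among the markers. Some markers themselves differed between the control, 6 h and 30 h, such as Apln (aCap; 26.8, 33 and 76.5 CPM) and Fibin (aCap; 205, 115 and 192 CPM). The aCap gate took 12.4%, 10.7% and 14.3% of ECs and the artery gate 2.14%, 2.03% and 3.48%. A class ratio between libraries may therefore mix a change in the barcodes gated with a change within the class, which was not tested. The gates held 5569 to 7280 gCap, 1129 to 1398 aCap, 215 to 323 artery, 467 to 604 vein and 52 to 70 lymphatic barcodes per library, and 13.9% to 15.9% of ECs passed none. Each class had its own markers higher than any other class did, which follows from gating on those markers and is no check of the classes. Artery-gated barcodes still had more gCap markers (2303 to 2435 CPM) than artery markers (1145 to 1388 CPM), and vein-gated ones had 2285 to 2546 CPM of gCap beside 3061 to 3202 CPM of vein markers, so these 2 classes share much of the gCap markers. Artery-gated barcodes also carried epithelial markers at 7470, 6395 and 1966 CPM, and 6, 6 and 2 of them had at least 50 such UMIs each. Without those barcodes the artery values of Bcl3 were 19, 65.1 and 22.2 CPM, against 19.1, 63.3 and 22 CPM with them, and the artery ratios of all members stayed within their intervals. A gate on UMI counts passes deeper barcodes more easily, with median depths of 7830 to 8673 UMIs in gCap and 10896 to 11895 UMIs in aCap.

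**Figure D3:**
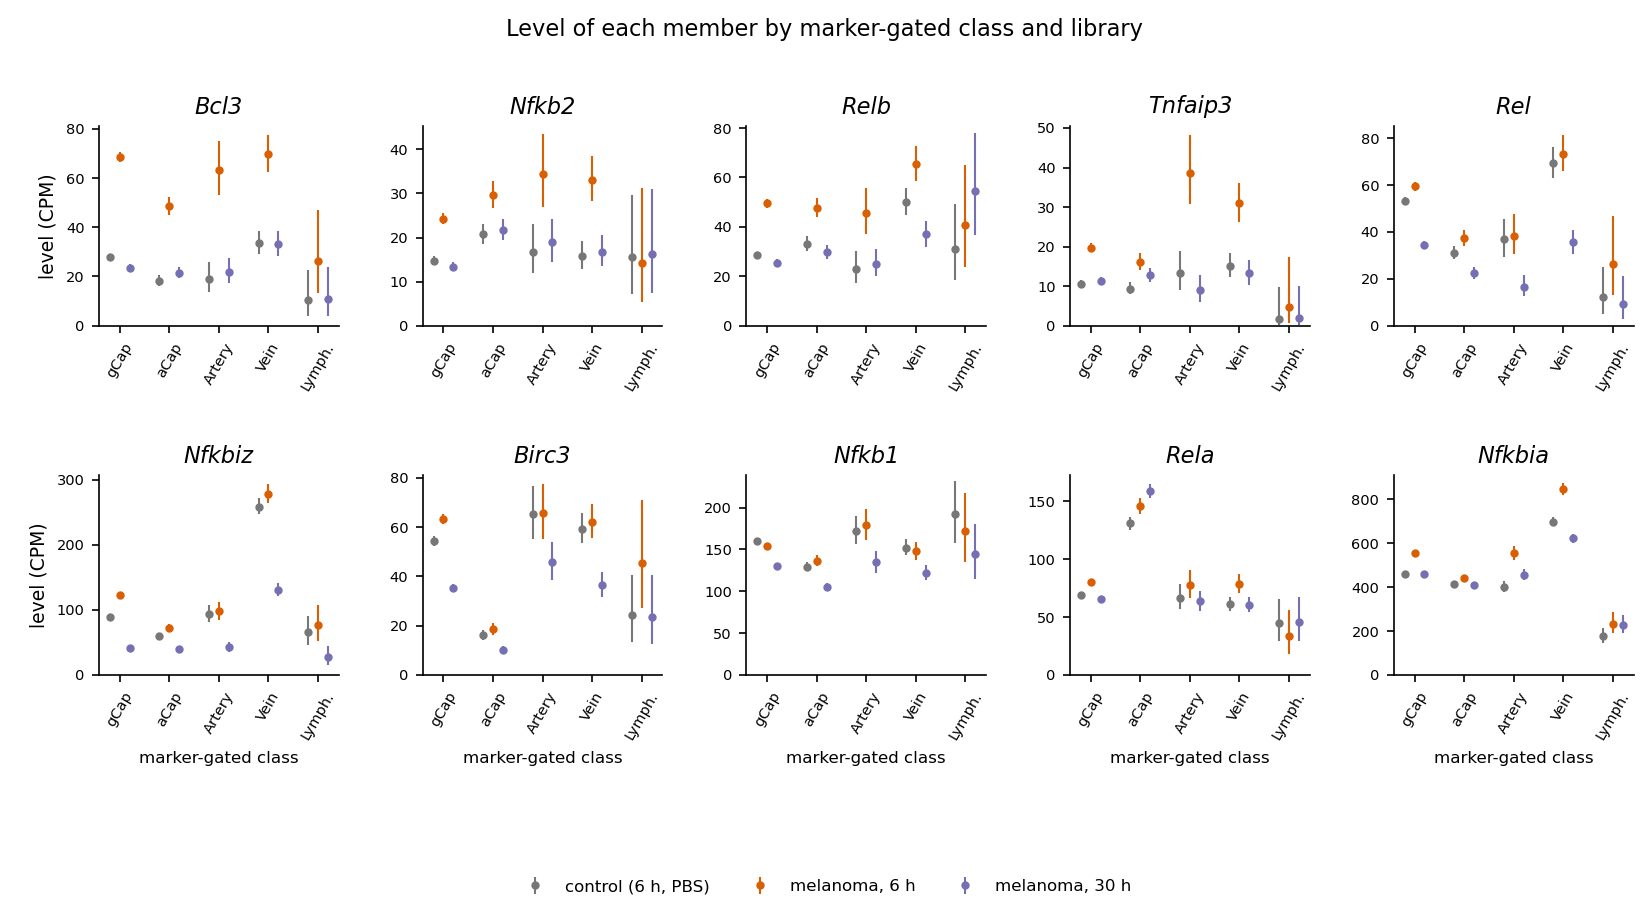
Level of each member (CPM, linear axes from 0) in the 5 marker-gated classes of each library, with exact Poisson 95% intervals. Nfkbiz was highest in vein-gated barcodes (259, 278 and 131 CPM from control to 30 h) and Birc3 lowest in aCap-gated ones (16.2, 18.5 and 10.1 CPM).

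The classes differed in which members they carried, and most of these differences were seen in each library. Vein-gated barcodes had the highest Nfkbiz, with 259 CPM (control), 278 CPM (6 h) and 131 CPM (30 h) beside 88.6, 123 and 41.2 CPM in gCap. That is 2.93, 2.26 and 3.17 times the gCap level. Vein also led for Nfkbia, with 697, 847 and 622 CPM or 1.52, 1.53 and 1.35 times gCap.

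Relb was 1.76 times as high in vein as in gCap in the control (50.1 against 28.5 CPM), 1.32 times at 6 h and 1.46 times at 30 h. Rel was higher in vein than in gCap in the control (69.5 against 53.1 CPM) and at 6 h (73.4 against 59.4 CPM), and not distinguishable at 30 h (35.5 against 34.4 CPM). In the control library, vein-gated barcodes thus stood above gCap for the inhibitors Nfkbia and Tnfaip3 (15.1 against 10.6 CPM). They also did for the nuclear IκB genes Nfkbiz and Bcl3 (33.6 against 27.8 CPM), with intervals of the ratio above 1-fold in each case.

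aCap showed another makeup. Its Birc3 was 16.2, 18.5 and 10.1 CPM, or 0.297, 0.291 and 0.286 times the gCap level, the widest gap between these classes for any member. All 3 aCap levels were below those measured in empty droplets (37.6, 24.5 and 22 CPM, on 33, 17 and 58 UMIs). The comparison at 6 h is the least certain, with the fewest UMIs. Rela in contrast was 131, 146 and 159 CPM in aCap, 1.88, 1.81 and 2.41 times gCap, and Nfkb2 was 1.4, 1.22 and 1.63 times gCap. Rel was at 0.586, 0.626 and 0.652 times gCap.

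Bcl3 was higher at 6 h than in the control in each of the 4 blood vessel classes. It went from 27.8 to 68.5 CPM in gCap, from 18.2 to 48.5 CPM in aCap, from 19.1 to 63.3 CPM in artery and from 33.6 to 69.8 CPM in vein. Log2 ratios were 1.30 (1.22 to 1.38), 1.41 (1.21 to 1.62), 1.73 (1.23 to 2.26) and 1.05 (0.80 to 1.31). Against gCap, the log2 ratio differed by 0.11 (-0.11 to 0.33) in aCap, 0.43 (-0.07 to 0.94) in artery and -0.25 (-0.51 to 0.01) in vein, so the size did not separate from that of gCap beyond counting error in any of them.

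Tnfaip3, Nfkb2 and Relb were likewise higher at 6 h in all 4 of these classes. For Tnfaip3 the log2 ratio was 0.89 (0.75 to 1.03) in gCap, 0.78 (0.47 to 1.10) in aCap, 1.54 (0.92 to 2.20) in artery and 1.03 (0.65 to 1.42) in vein. Artery lay 0.66 (0.04 to 1.28) above gCap. Relb differed between classes: 0.80 (0.71 to 0.89) in gCap, 0.53 (0.35 to 0.70) in aCap, 0.99 (0.49 to 1.51) in artery and 0.38 (0.15 to 0.61) in vein. Against gCap the Relb ratio differed by -0.42 (-0.66 to -0.18) in vein and -0.27 (-0.46 to -0.08) in aCap, and that of artery was not distinguishable from gCap. Vein also had the highest control level of Relb of these 4 classes.

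Nfkbiz at 6 h had a log2 ratio of 0.47 (0.42 to 0.53) in gCap, 0.27 (0.13 to 0.40) in aCap, 0.07 (-0.21 to 0.36) in artery and 0.10 (-0.00 to 0.21) in vein. Against gCap the difference was -0.40 (-0.68 to -0.12) in artery and -0.37 (-0.49 to -0.26) in vein. Control levels were 93.1 CPM in artery and 88.6 CPM in gCap, close to each other, and 259 CPM in vein. The aCap value came to 0.08 without barcodes marked as doublets. At 30 h the order changed, with -1.10 (-1.18 to -1.03) in gCap, -0.99 (-1.12 to -0.86) in vein, -1.13 (-1.45 to -0.82) in artery and -0.59 (-0.74 to -0.45) in aCap, which lay 0.51 (0.35 to 0.67) above gCap.

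Rel and Birc3 were lower at 30 h than in the control in all 4 blood vessel classes, Rel with log2 ratios of -0.63 in gCap, -0.47 in aCap, -1.14 in artery and -0.97 in vein, and Birc3 with -0.63, -0.68, -0.51 and -0.71. Bcl3 at 30 h was below the control in gCap (-0.23, interval -0.34 to -0.13) and above it in aCap (0.24, 0.01 to 0.48). Rela in aCap was above the control at 30 h as well (0.28, 0.20 to 0.37) while gCap was slightly below it (-0.07, -0.14 to -0.00). Lymphatic-gated barcodes had 1 to 126 UMIs per member and library, and there only Nfkbiz at 30 h, with 15 UMIs against 38 and a log2 ratio of -1.27 (-2.24 to -0.38), had an interval against the control apart from 0.

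**Figure D4:**
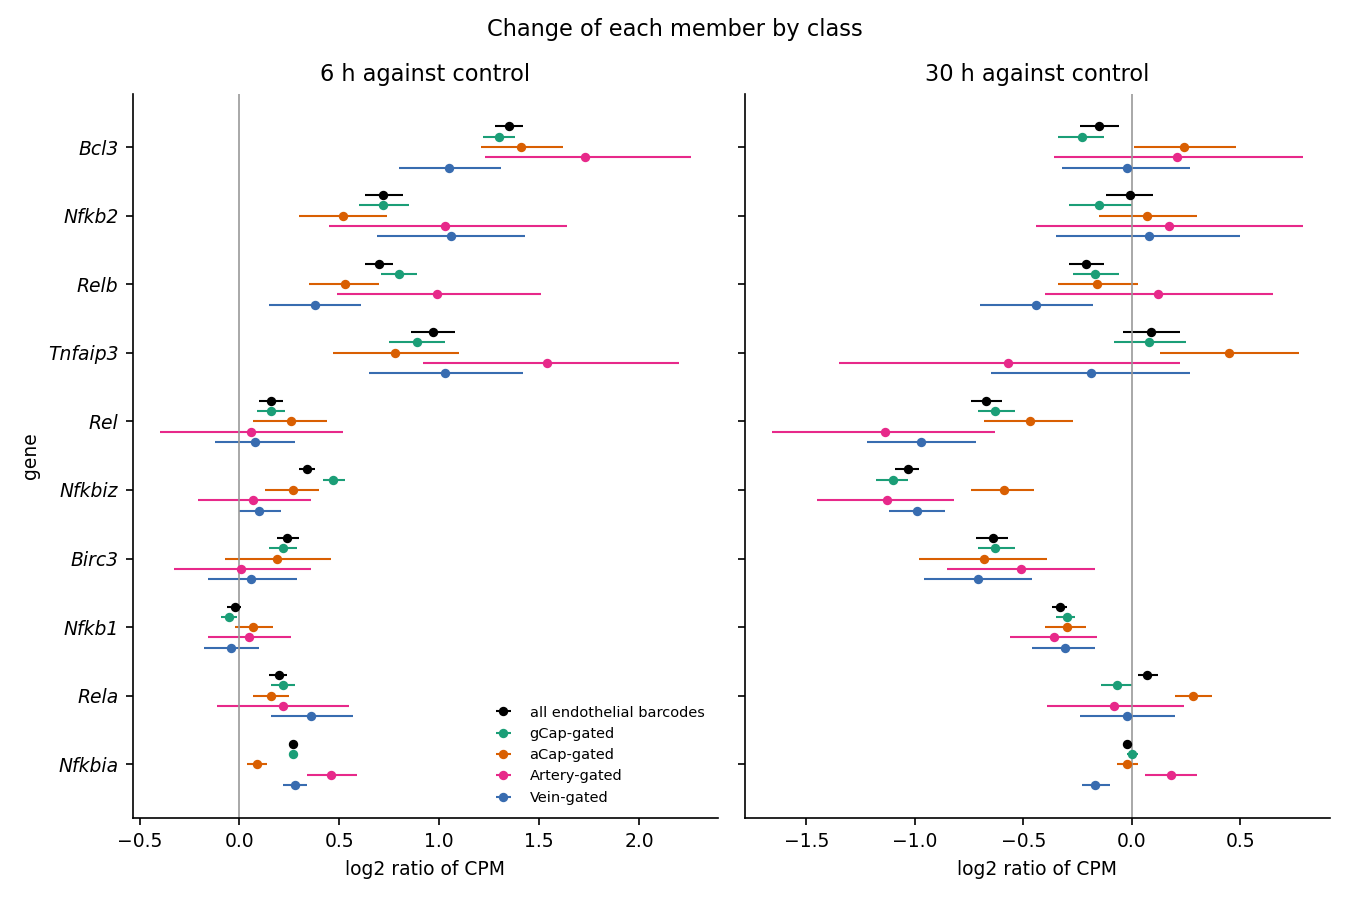
Log2 ratio of CPM to the shared control for each member at 6 h (left) and 30 h (right), in all ECs and in 4 marker-gated classes, with exact conditional binomial 95% intervals (counting error only). At 6 h the points of Bcl3 lie between 1.05 (vein) and 1.73 (artery), and at 30 h those of Nfkbiz between -1.13 (artery) and -0.59 (aCap).

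The share of ECs with a UMI of a member was compared after thinning each barcode to 2000 UMIs (11036, 10386 and 9167 barcodes, with 195, 197 and 111 shallower ones left out). Bcl3 was seen in 4.92% (95% interval 4.52 to 5.34) of control barcodes, 11.4% (10.8 to 12.1) of those at 6 h and 3.89% (3.51 to 4.31) of those at 30 h. Unthinned shares were 15.7%, 32.3% and 15.2%. The number of barcodes with Bcl3 thus moved with its level, and barcodes with 3 or more unthinned Bcl3 UMIs were 0.997%, 5.11% and 0.948% of ECs.

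Nfkbia was the member seen most widely, in 54.4%, 56.4% and 55.6% of thinned barcodes. Its 6 h share thus differed little from the control although its summed level was 1.21 times as high. Barcodes with 5 or more unthinned Nfkbia UMIs were 29.9%, 35.8% and 35.5%. Unthinned counts follow depth, with medians of 7782, 8033 and 8675 UMIs. At 30 h the summed Nfkbia level was close to the control (454 against 462 CPM). The variance of Nfkbia UMIs over their mean was 4.26, 6.3 and 3.05, the highest of the members in each library. Nfkbiz was seen in 13.4%, 16.7% and 7.12% of thinned barcodes, and Tnfaip3 in 2%, 3.46% and 2.16%. Shares of a cell type that lacks these genes were not available as a background; the level in empty droplets was given with the members it comes near to and is shown for all members in the plot of levels by library.

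Within a library, thinned barcodes with a Bcl3 UMI (543, 1189 and 357) were set against those without one. At 6 h the other members were higher where Bcl3 was seen, except Nfkb1: Tnfaip3 was at 33.6 against 18 CPM, Relb at 82.8 against 46.2 CPM, Nfkb2 at 40.8 against 23.3 CPM and Nfkbia at 752 against 520 CPM. Log2 ratios were 0.90 (0.53 to 1.26), 0.84 (0.61 to 1.07), 0.81 (0.48 to 1.13) and 0.53 (0.46 to 0.61) in that order. Nfkb1 was at 156 against 150 CPM, a log2 ratio of 0.06 (-0.10 to 0.22).

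In the control the log2 ratio was 0.72 (0.13 to 1.26) for Nfkb2, 0.71 (0.25 to 1.13) for Relb, 0.65 (0.40 to 0.89) for Nfkbiz and 0.43 (0.32 to 0.55) for Nfkbia. The interval of Tnfaip3 included 0 there (0.71, -0.05 to 1.39), and Rela was at -0.03 (-0.37 to 0.30). At 30 h the intervals of Nfkb2 (0.83, 0.08 to 1.51), Birc3 (0.60, 0.05 to 1.11) and Nfkbia (0.24, 0.09 to 0.39) lay above 0. Those of Nfkb2 and Birc3 did so narrowly, on 19 and 33 UMIs in Bcl3-positive barcodes, and that of Nfkb1 reached 0.00 (0.30, 0.00 to 0.59). Immediate early genes moved beside this, summing to 13683 CPM in Bcl3-positive and 10569 CPM in Bcl3-negative barcodes at 6 h, and their part in the result was not tested. Heat shock genes were also higher at 6 h, with 3227 against 2820 CPM (log2 ratio 0.19, 0.16 to 0.23), and level in the control (0.02, -0.06 to 0.09). Vein markers were higher in Bcl3-positive barcodes of the control (426 against 273 CPM) and at 30 h (332 against 270 CPM), and level at 6 h (233 against 229 CPM). Within gCap-gated barcodes at 30 h the intervals of Nfkb2 (0.93, -0.06 to 1.77) and Birc3 (0.53, -0.17 to 1.15) included 0. Within gCap-gated barcodes at 6 h the log2 ratio was still 0.91 for Nfkb2, 0.78 for Relb and 0.78 for Tnfaip3.

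**Figure D5:**
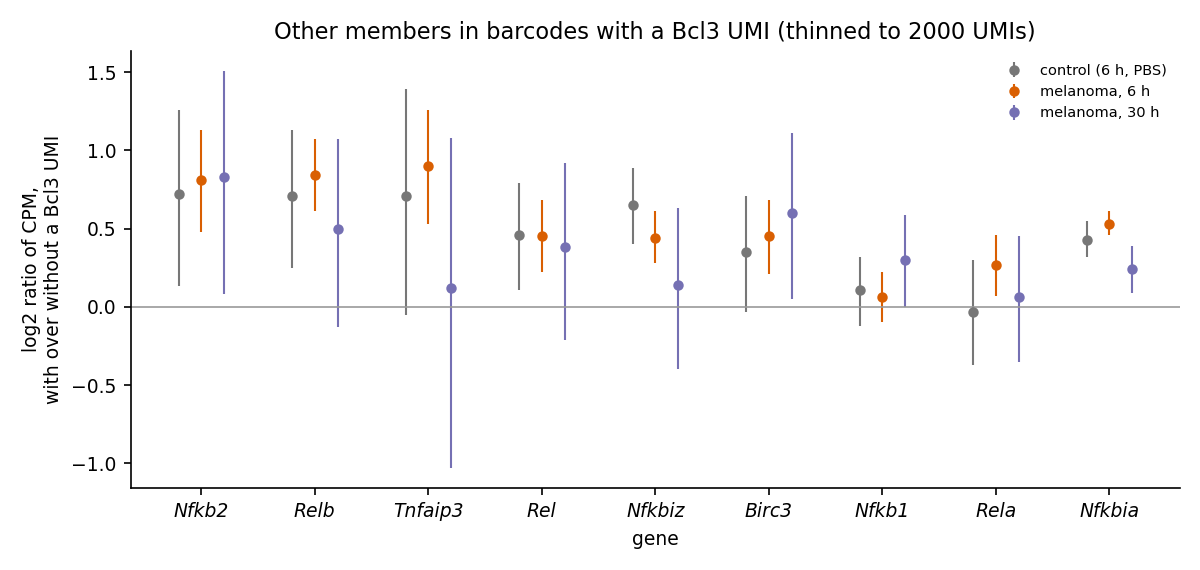
Log2 ratio of CPM between barcodes with and without a Bcl3 UMI, per library, for the other 9 members after thinning to 2000 UMIs, with exact conditional binomial 95% intervals. At 6 h the points run from 0.06 (Nfkb1) to 0.90 (Tnfaip3), and the intervals are widest at 30 h, where 357 barcodes had a Bcl3 UMI.

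Over the 15 sums of class and library, the 7193 genes averaging 20 CPM or more were ordered by their Pearson correlation with a member on log2(CPM + 1). The 5 most like Bcl3 were Atf3 (0.93; a stress-induced transcription factor on the immediate early list), H3f3b (0.93; a histone H3.3 gene), Eef1e1 (0.91; part of the tRNA synthetase complex), Bcl6 (0.89; a transcriptional repressor) and Sbno2 (0.89; a transcriptional corepressor). Atf3 stood at 180 CPM in the control, 550 CPM at 6 h and 128 CPM at 30 h, and Bcl6 at 13.6, 35.4 and 18.4 CPM. Those most like Nfkbia were Ddx58, which encodes the RNA sensor RIG-I (0.95), Zfp46 (0.95), Ehbp1l1 (0.94), Uap1 (0.94) and Tlnrd1 (0.94). Among the members, Bcl3 was closest to Tnfaip3 (0.87) and Rel (0.79), and Nfkbia to Tnfaip3 (0.89).

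These orders rest in part on the 3 lymphatic sums, where Tnfaip3 had 1 or 2 UMIs, Bcl3 6 or 11 and Rel 5 to 11. Over the other 12 sums, Bcl3 was at 0.87 with Relb, 0.86 with Tnfaip3 and 0.61 with Rel, and Nfkbia was at 0.86 with Nfkbiz and 0.61 with Tnfaip3. Of the 5 genes most like Bcl3 only H3f3b remained among the first 5, joined by the heat shock genes Hsp90aa1 (0.94) and Hsph1 (0.92), Ahsa2 (0.92) and Impdh2 (0.91), while Atf3 was at 0.90. For Nfkbia 0 of the 5 remained, the closest then being Ldha (0.96) and Neurl3 (0.95). The sums of 1 library share its depth and handling, so none of these values describes independent samples.

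Of 66 other genes of the pathway, also listed with earlier results of these data known, 47 passed the limit of 5 CPM. Among the 19 under it, 3 target genes named here after their values were seen had few UMIs in the control and more at 6 h. Csf2, the gene of the growth factor GM-CSF, had 0.682 CPM in the control, 9.42 CPM at 6 h and 0.0491 CPM at 30 h (62, 823 and 4 UMIs). Sele, which encodes E-selectin, had 0.495, 6.53 and 0.663 CPM, and the chemokine gene Cxcl2 1.4, 4.35 and 1.37 CPM. Not all targets under the limit rose. The chemokine gene Ccl2 was lower, at 1.11, 0.55 and 0.0736 CPM, with a 6 h log2 ratio of -1.02 (-1.54 to -0.51). Il6 was level at 6 h, with 0.308, 0.298 and 0.0736 CPM. At 6 h, 8 of the 47 were past the limit upward and 1 downward, with a median of 0.14, beside the 2.57% and 1.81% of all genes given above. Tnfrsf12a, the TWEAK receptor, went from 19.9 to 41.5 CPM, the chemokine gene Cxcl10 from 6.64 to 14.8 CPM, Selp, which encodes P-selectin, from 13.9 to 26.9 CPM and the chemokine gene Cxcl16 from 45.3 to 76.2 CPM. The others upward were Ier3, Junb (an immediate early gene as well), Zc3h12a, an RNase that destroys inflammatory transcripts, and Tnip1, which binds A20. Bcl2l1, the gene of the survival protein Bcl-xL, was lower, at 99.1 against 171 CPM.

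By role, 5 of 14 target genes were past the limit upward at 6 h, 2 of 9 other inhibitors and ubiquitin editors, 1 of 15 receptors and adaptors and 0 of 9 kinases. At 30 h against the control, 0 of the 47 were past it upward and 7 downward, with a median of -0.20, beside 5.87% and 7.34% of all genes and their median of -0.07. These were Selp (4.71 against 13.9 CPM), Csf1 (38.7 against 81.3 CPM), Ptgs2 (6.84 against 14.2 CPM), Icam1 (141 against 260 CPM), the kinase gene Map3k14 that drives the Nfkb2 branch (10.7 against 17.6 CPM), Tnip2 (21.9 against 34.1 CPM) and Irf1 (230 against 335 CPM). Between the melanoma libraries 41 of the 47 were lower at 30 h than at 6 h, beside 60.1% of all genes, 19 of them past the limit, beside 6.82%, and 1 (Bcl2l1) was past it upward, beside 6.39%.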

How the data were processed

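The deposited values are raw UMI counts per gene and barcode, made by the authors with Cell Ranger 7.2.0 per the file headers and mm10 per the study's methods, which name an older version; whether introns were counted is not given in the sources used here. The matrices were not filtered before deposit and totalled 124085451 to 140601123 UMIs per library. UMIs of EC barcodes were summed by library, and by class within it, and expressed as CPM. Intervals are exact at 95% (Poisson for sums, conditional binomial for ratios, Clopper-Pearson for shares); those of differences between classes are normal on log counts. No p-value was computed. Scripts used Python 3.11.15 with numpy 2.4.6, scipy 1.17.1, scanpy 1.11.5 (Scrublet, whose doublet marks were used in an alternative) and matplotlib 3.10.9. The ratios were also computed on simulated counts that held counting error only, which says nothing of differences between libraries. Named genes are all members, other pathway genes past the limit against the control (at most 10 per comparison), the 5 most like Bcl3 and Nfkbia, and markers. Csf2, Sele, Cxcl2, Ccl2 and Il6, which averaged under 5 CPM, were also named after their values were seen. So were the genes closest to Bcl3 and Nfkbia without the lymphatic sums. Alternatives changed the barcodes kept, the scaling, the pseudocount, the limits and the gates. Of the 32285 gene IDs, 32158 matched GENCODE M21, from which coordinates were taken. Members and lists were chosen with earlier results of these data known.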

Additional observations from a re-analysis of the deposited data

Results flagged for a closer look

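For 6 members, counting intervals at 6 h and 30 h lay on opposite sides of the shared control (higher at 6 h, lower at 30 h), beside 10.3% of all genes tested. The width of an interval depends on a gene's UMIs, and for Nfkbia the 30 h sign changed with the scaling. The difference between the times was not tested, since each had 1 library. The log2 ratio was 1.35 at 6 h and -0.15 at 30 h for Bcl3, 0.70 and -0.21 for Relb, 0.34 and -1.03 for Nfkbiz, 0.24 and -0.64 for Birc3, 0.16 and -0.67 for Rel, and 0.27 and -0.02 for Nfkbia. For Bcl3 and Relb the higher level at 6 h was the larger difference, and for Nfkbiz, Rel and Birc3 the low level at 30 h. Immediate early genes summed to 8521 CPM in the control, 11431 CPM at 6 h and 6174 CPM at 30 h. In barcodes at or under the median of immediate early and heat shock UMIs the log2 ratio at 6 h and 30 h was 1.28 and 0.09 for Bcl3, 0.74 and 0.10 for Relb, and -0.01 and -0.49 for Rel, so these no longer lay on opposite sides, and for Nfkbia it was -0.05 and 0.09, the reverse of the signs in all ECs. For Nfkbiz it was 0.02 and -0.53 and for Birc3 0.04 and -0.62, so their 6 h values were near 0 there.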

How the results depend on the processing

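Of the log2 ratios of single members recomputed under 13 alternatives, 306 stayed within the counting interval of the reported value and 84 left it, and Bcl3, Nfkb2, Relb and Tnfaip3 at 6 h and Nfkbiz and Birc3 at 30 h stayed past the limit of 0.5 in all 13 (Bcl3 between 1.20 and 1.39, Nfkbiz between -1.12 and -0.53); Rel at 30 h did so in 12 and reached -0.49 in barcodes low in immediate early and heat shock RNA, where Nfkb2 and Rel also came to -0.48 between the melanoma libraries. The members' median at 6 h (0.30) became 0.23 in barcodes with no UMI of other cell types' markers (1132 to 2903 per library), 0.37 in gCap-gated barcodes, 0.35 with classes weighted alike and 0.13 in barcodes low in immediate early and heat shock RNA; in the last it became 0.07 at 30 h (from -0.17) and -0.49 between the melanoma libraries (from -0.82), and the latter was -0.71 with log2(CPM + 5). A limit of 1 left 1 member upward at 6 h (Bcl3), beside 0.373% of all genes, and 1 downward at 30 h (Nfkbiz), beside 0.885%. Between the melanoma libraries it left 2 downward, beside 1.25%. Other scalings moved the median of all genes by at most 0.04. Of the class ratios under alternatives, 597 stayed within their intervals and 1 did not (Nfkbiz in aCap at 6 h, 0.08 without doublets). The removal of barcodes with 2 or more UMIs of other cell types, or 50 epithelial UMIs, and of the lymphatic sums was chosen after seeing the data. Of the 5 genes most like Nfkbia, 1 was also among the 5 by Spearman and 0 without the lymphatic sums; for Bcl3 these were 4 and 1. Shares of barcodes depend on depth and moved without thinning for all members. No paired analysis was possible because each group has 1 library. Depth limits the lymphatic class and, for Tnfaip3 and Nfkb2, the artery class. Doublets were kept in the reported values.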

Other observations

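Outside the endothelium, the 6 h library held 16 barcodes with UMIs of at least 4 of the 5 melanoma markers and fewer than 2 UMIs of Pecam1 and Cdh5, and the other libraries held 0. Their 181614 UMIs had Dct, a melanin synthesis gene and one of the 5 markers used to select them, at 7147 CPM. Bcl3, Rel and Tnfaip3 had 0 UMIs there, which allows up to 20.3 CPM each at the 95% upper limit, beside 65.5, 56.1 and 21.6 CPM in ECs of the same library. Nfkbia had 3 UMIs, or 16.5 CPM (3.41 to 48.3), beside 558 CPM in ECs, and Nfkb1 had 4 UMIs, or 22 CPM (6 to 56.4), beside 152 CPM. These barcodes come from 1 library and their small number sets the width of the intervals.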
